A study of Homo sapiens with 2 samples.

Results

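The 53 genes described here encode proteins of the G2 phase and of mitosis: cyclin B and the kinase CDK1, other mitotic kinases, spindle motors, kinetochore and centromere proteins, the ubiquitin machinery of mitotic exit, and proteins that fold chromosomes or rebuild the nuclear envelope. They were chosen by symbol from the 36601 genes of the matrix, and each symbol matched 1 row. The culture was 1 pool of PC9 cells, an established EGFR-mutant line of human lung adenocarcinoma. The cells were infected with a lentiviral sgRNA library at a rate of about 40% and selected with puromycin. Each cell was read by 3' single-cell RNA sequencing, with its sgRNA captured beside its transcripts. All groups share the line, the dCas9 transgene that the labels name, the infection and the selection, and differ in the sgRNA: non-targeting controls (4 sgRNAs) or sgRNAs against MYC (2), PGAM1 (4), CTNNB1 (6), JUN (6), ATF4 (6) or CTCF (6). The labels call the screen a knockout, yet name dCas9, a form that does not cut DNA, and knockdown, so whether the genes were cut or repressed is uncertain. They name 4 target families where the matrix holds 6 genes, and give day 8 for the experiment and day 7 for a harvest, so the day is uncertain too.

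In dividing cells, transcripts of these genes build up after DNA replication, peak in G2 and mitosis, and fall as cells enter G1. Cyclin B switches CDK1 on, the spindle motors and kinetochore proteins then align and separate the chromosomes, and the anaphase-promoting complex marks cyclin B and securin for destruction, which ends mitosis. Their promoters are known for a pair of elements, the cell cycle genes homology region (CHR), where the MuvB complexes bind, and CCAAT boxes, where NF-Y binds.

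Promoters from RefSeq (GRCh38.p14, 250 bases before to 50 after the start) were matched for 45 of the 53 genes and not for UBE2C, AURKA, TPX2, HMGB2, TTK, BIRC5, CDCA2 and FAM83D. A CHR core, searched as TTTGAA or TTCGAA on both strands, was in 32 of the 45 windows (71.1%) and in 16.6% of all 27305 windows of that length. A CCAAT box, searched on both strands, was in 33 (73.3%) against 35.7%, and 24 windows (53.3%) held 2 or more against 11.3%. Both elements stood in 27 windows (60%) against 6.58%. The AP-1 element, TGACTCA or TGAGTCA on both strands, which JUN proteins bind, was in 1 of the 45 windows (2.22%), that of LBR, against 4.92% of all windows. An E2F element, GGCGGGAA or GCGCGAAA on both strands, was in 3 (6.67%) against 3.69%. The 160 bases before the start are printed for 6 genes, 5' to 3' on the gene's own strand, with CHR cores and CCAAT boxes of either strand in capitals: the 3 genes with the lowest p for JUN sgRNAs (CCNB1, KIF18A, CENPF), a gene high in mitotic cells (HMMR) and a pair of genes about as high in S phase cells (CKS1B, TMPO).
CCNB1, chr5:69166990-69167149, plus strand: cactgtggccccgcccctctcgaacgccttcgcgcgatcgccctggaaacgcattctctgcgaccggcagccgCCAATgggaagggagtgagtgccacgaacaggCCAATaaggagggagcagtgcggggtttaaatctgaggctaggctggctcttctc
KIF18A, chr11:28108157-28108316, minus strand: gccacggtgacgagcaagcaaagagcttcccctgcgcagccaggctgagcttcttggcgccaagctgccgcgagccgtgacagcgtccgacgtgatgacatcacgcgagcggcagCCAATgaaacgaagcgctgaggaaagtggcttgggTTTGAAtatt
CENPF, chr1:214603035-214603194, plus strand: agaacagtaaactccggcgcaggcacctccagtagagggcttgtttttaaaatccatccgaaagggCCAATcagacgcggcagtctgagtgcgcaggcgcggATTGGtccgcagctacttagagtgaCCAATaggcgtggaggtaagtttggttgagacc
HMMR, chr5:163460472-163460631, plus strand: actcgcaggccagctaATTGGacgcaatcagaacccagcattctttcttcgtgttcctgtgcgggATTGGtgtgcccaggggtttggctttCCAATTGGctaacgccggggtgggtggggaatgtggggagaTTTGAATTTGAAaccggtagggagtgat
CKS1B, chr1:154974521-154974680, plus strand: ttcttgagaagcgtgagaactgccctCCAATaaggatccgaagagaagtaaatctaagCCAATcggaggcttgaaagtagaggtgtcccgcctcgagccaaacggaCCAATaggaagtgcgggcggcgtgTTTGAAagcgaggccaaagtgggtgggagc
TMPO, chr12:98515413-98515572, plus strand: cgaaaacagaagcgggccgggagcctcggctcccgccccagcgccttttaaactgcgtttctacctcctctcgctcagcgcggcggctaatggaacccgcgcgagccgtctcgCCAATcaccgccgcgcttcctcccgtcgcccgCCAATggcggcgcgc
In these stretches HMMR held 2 CHR cores, which lie side by side, and 4 CCAAT boxes, 2 of which overlap as CCAATTGG. KIF18A held 1 CHR core, which begins 10 bases before the start, and 1 CCAAT box. CKS1B held 1 CHR core and 3 CCAAT boxes, CENPF 3 CCAAT boxes, and CCNB1 and TMPO 2 CCAAT boxes each. The CHR core of CENPF lies after the start, at +41, outside the printed stretch. Only the forms TTTGAA and TTCGAA were searched, so CCNB1 and TMPO may hold a CHR of another form. None of the 6 stretches held the AP-1 element.

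After filtering, 10142 of 10847 cell barcodes remained, with 1011 to 39824 gene UMIs per cell (median 12239.5). A UMI is 1 captured molecule, read at its 3' end, so the values are not scaled by gene length. The gene and sgRNA libraries were read from the same cells and share every barcode of the joint matrix, in which all barcodes carry 1 suffix. A single sgRNA was assigned to 5556 cells, and the gene counts summed for each of the 34 sgRNAs tested ranged from 267726 to 6430143 UMIs. The epithelial markers KRT18 (4435 CPM, a share of all gene UMIs on the usual CPM scale), KRT19 (2204 CPM) and EPCAM (268 CPM) were present, whereas each of the 17 fibroblast, leukocyte, endothelial and erythroid markers lay between 0 and 2.03 CPM. The targeted transcript was lower for PGAM1 sgRNAs (53.2 to 102 CPM against 204 to 213 CPM with controls) and overlapped the controls for JUN sgRNAs (53.3 to 81.3 CPM against 69.3 to 78.6 CPM). The MYC transcript stood at 86.7 and 142 CPM in the sgRNAs labelled MYC and at 63.0 to 72.6 CPM in controls, which goes against that label as far as a lower transcript was sought. With CTCF sgRNAs the CTCF transcript overlapped the controls (20.8 to 41.9 CPM against 35.6 to 47.6 CPM). The ATF4 transcript (186 to 332 CPM against 343 to 376 CPM) and the CTNNB1 transcript (14.9 to 34.0 CPM against 42.9 to 57.8 CPM) were lower with their own sgRNAs. The labels of the JUN, CTCF and MYC sgRNAs are taken as given below.

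The 53 genes together held 452650 UMIs, 0.339% of all gene UMIs of the filtered cells. The levels over all cells ran from CKS1B (239 CPM), a small subunit of cyclin-dependent kinases, HMGB2 (225 CPM), a chromatin protein, and UBE2C (213 CPM), the ubiquitin-conjugating enzyme of the anaphase-promoting complex, down to CDC25C (11.8 CPM), the phosphatase that activates CDK1, PSRC1 (7.62 CPM) and GAS2L3 (4.35 CPM), which bind microtubules. Near-identical copies of CKS1B, HMGB2 and PTTG1 exist in the genome. The sources used here do not state how reads shared with them were counted, so these 3 levels are uncertain.

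To place cells in the cycle without the 53 genes, each cell of enough depth (9909 cells; 233 were too shallow) was thinned to 5000 UMIs, and the UMIs of 38 other mitotic genes, the mitotic anchor, and of 43 S phase genes were counted. Mitotic cells were taken as those with at least 23 anchor UMIs (987 cells, median depth 15685 UMIs) and S phase cells as those with at least 14 UMIs of the S phase list (942 cells, median depth 14248 UMIs). The 41 cells that met both rules were left out. Low cells were in the lower part of both counts (3934 cells, median depth 10839 UMIs). These classes are ranges of a score, not cell types, and 90 cells lay exactly at the mitotic limit. The anchor gene UBE2S alone held a large part of the anchor count (below). The 53 genes made up 1.08% of the UMIs in mitotic cells, 0.399% in S phase cells and 0.0709% in low cells. As all cells come from 1 culture, these comparisons are descriptions with no test.

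**Figure D1:**
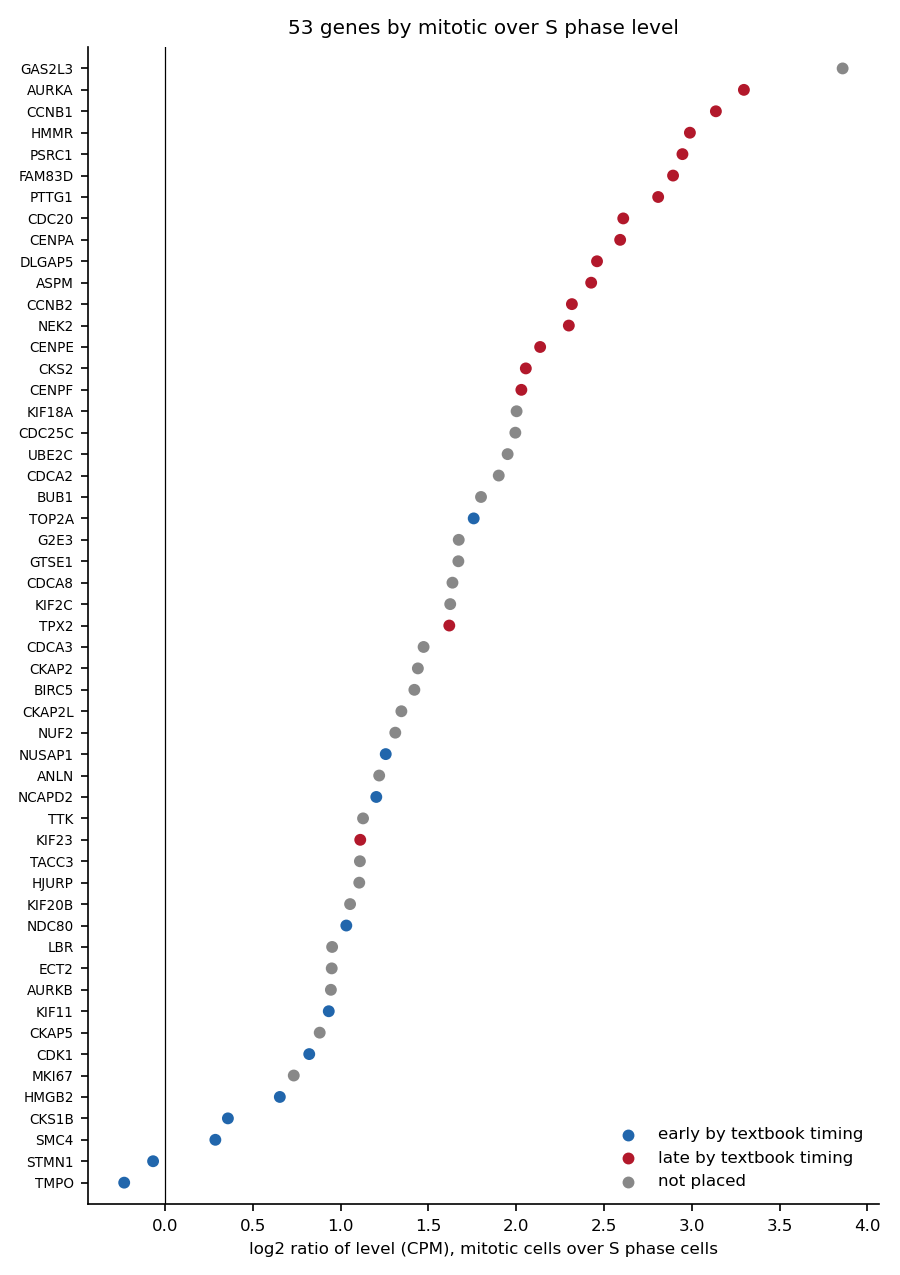
Log2 ratio of the level (CPM) in mitotic cells over S phase cells, 1 point for each of the 53 genes, coloured by textbook timing. GAS2L3 lies highest at 3.86 and TMPO lowest at -0.23, and 4 of the 11 early genes and all 17 late genes lie at 1 or above.

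Of the 53 genes, 41 were at least 2-fold higher in mitotic than in S phase cells (median log2 ratio 1.62), whereas 1.18% of the 7704 genes of at least 10 CPM were (median 0.01). The highest ratios were those of GAS2L3 (log2 3.86; 24.1 CPM in mitotic cells and 1.66 CPM in S phase cells), of the spindle pole kinase AURKA (3.30; 209 and 21.3 CPM), CCNB1 (3.14; 506 and 57.5 CPM), HMMR, which binds spindle microtubules (2.99; 477 and 60.1 CPM), and PSRC1 (2.95; 32.8 and 4.25 CPM). The lowest were those of TMPO, a protein of the inner nuclear envelope (-0.23; 74.7 and 87.7 CPM), the microtubule-destabilising stathmin STMN1 (-0.07; 299.9 and 314 CPM), the condensin subunit SMC4 (0.29; 214 and 175 CPM), CKS1B (0.36; 445 and 347 CPM) and HMGB2 (0.65; 587 and 373 CPM). TMPO and, by a small margin, STMN1 were thus the members whose level was lower in mitotic than in S phase cells. Both were still higher in S phase cells than in low cells, where STMN1 stood at 72.3 CPM and TMPO at 15.7 CPM.

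Textbook timing placed 11 of the genes early, in late S and G2, and 17 late, in late G2 and mitosis, and left 25 unplaced. All 17 late genes were at least 2-fold higher in mitotic than in S phase cells (median log2 ratio 2.46), and 4 of the 11 early genes were (median 0.82). The 2 lists overlapped. TOP2A, the topoisomerase that untangles sister chromatids, is placed early and had a ratio of 1.76, and KIF23, a motor of the central spindle, is placed late and had a ratio of 1.11. Paralogues differed within each pair. The cyclins CCNB1 (3.14) and CCNB2 (2.32) were both high in mitotic cells, whereas the Aurora kinases stood apart, with AURKA at 3.30 and AURKB, the kinase of the chromosomal passenger complex, at 0.95. CKS2 had a ratio of 2.06 and CKS1B one of 0.36.

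**Figure D2:**
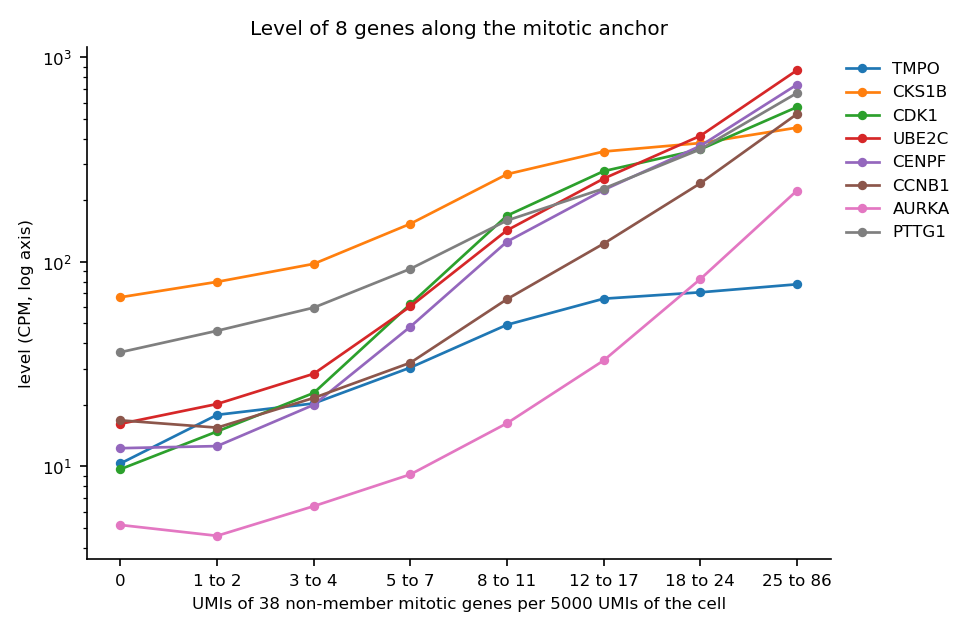
Level (CPM, log axis) of 8 of the genes in cells grouped by their UMIs of the mitotic anchor per 5000 UMIs. TMPO rises from 49.2 to 77.6 CPM over the upper 4 groups, CDK1 from 168 to 571 CPM and AURKA from 16.2 to 223 CPM.

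Along the mitotic anchor early and late genes came up together at first, and their sums parted in the upper groups. From cells with 3 to 4 anchor UMIs (1827 cells) to cells with 8 to 11 (1587 cells), CDK1 went from 22.8 to 168 CPM, TMPO from 20.3 to 49.2 CPM and STMN1 from 81.3 to 219.8 CPM. Of the late genes, AURKA went from 6.38 to 16.2 CPM, HMMR from 7.26 to 44.9 CPM and CCNB1 from 21.6 to 65.6 CPM over the same groups. From there to the 872 cells with 25 or more anchor UMIs, STMN1 went on to 303 CPM and TMPO to 77.6 CPM, whereas AURKA reached 223 CPM, HMMR 501 CPM (from 44.9) and CCNB1 528 CPM (from 65.6). Not all early genes levelled off, as CDK1 went on from 168 to 571 CPM and TOP2A from 54.0 to 356 CPM. The UMIs of the late genes divided by those of the early genes were 0.62 in cells with 1 to 2 anchor UMIs, 0.67 with 3 to 4, 0.65 with 5 to 7, 0.64 with 8 to 11, 0.76 with 12 to 17, 1.10 with 18 to 24 and 1.60 with 25 or more. In the 139 cells with no anchor UMI the ratio was 0.76. The median depth of these groups went from 10492 UMIs in the lowest to 15832 UMIs in the highest, and its part in the levels was not tested.

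Across single cells the genes varied together. Over all 10142 cells, the median correlation of a pair (Pearson, log of UMIs scaled to cell depth) was 0.36, with a range of 0.11 to 0.77, and the highest pairs were UBE2C with CDK1 (0.77), CENPF with HMMR (0.73) and HMMR with CCNB1 (0.72). Within the 2049 cells with at least 16 anchor UMIs, called G2/M-high cells below, the median was 0.22. There, pairs of late genes had a median of 0.33, pairs of early genes 0.20 and mixed pairs 0.20. PTTG1, which encodes securin, correlated with CCNB1 at 0.64 in these cells, and with TMPO at -0.10. The cells share 1 culture and 1 library, and their depth differs, so these values are descriptions.

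The comparisons between sgRNA targets asked whether any target changed these genes. The sgRNA was the unit, each target was set against the same 4 control sgRNAs, and so the 6 contrasts are not independent of one another. All 53 genes passed the filter on low counts, among 11570 genes tested with edgeR's quasi-likelihood test. At an adjusted p under 0.05, 1 of the 53 genes changed in 1 contrast, STMN1, which rose with PGAM1 sgRNAs. For JUN, 0 of 53 were called, where 0.00864% of all genes were, and for CTNNB1, 0 against 0.00864%. For CTCF 0 were called against 0.0259%, for MYC 0 against 0.277%, for ATF4 0 against 1.75%, and for PGAM1 1 of 53 against 0.389%. DESeq2 likewise called 0 in each contrast but that of PGAM1, where it called STMN1. As RNA was summed over cells, a larger share of cells in G2/M and more RNA per such cell cannot be told apart in these sums.

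**Figure D3:**
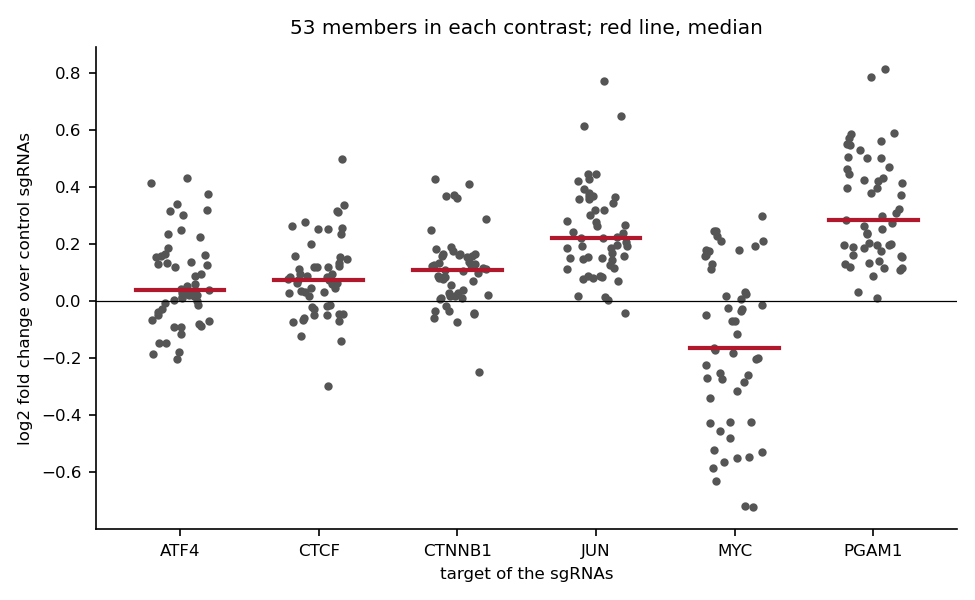
Log2 fold change over control sgRNAs of the 53 genes (points) in the 6 contrasts, with the median as a red line. The points of PGAM1 all lie above 0 and those of JUN lie above 0 but for CKAP5, while 35 of those of MYC lie below 0.

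With JUN sgRNAs the values of the 53 genes lay mostly above those of the controls, without any gene passing. The median log2 fold change was 0.22, against 0.004 over all genes, and 52 of 53 values were positive. An unadjusted p under 0.05 with a higher value was reached by 19 of 53 genes, and by 2.45% of all genes tested. No gene of the 53 had all 6 JUN sgRNAs above all 4 controls, where 0.467% of all genes did. The genes are not independent of one another, as their correlation over cells shows.

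CCNB1, the main mitotic cyclin (ENSG00000134057, GRCh38.p14 chromosome 5, 69167150 to 69178245), stood at 105, 119.8, 93.0 and 108 CPM in control sgRNAs 1 to 4. In JUN sgRNAs 1 to 6 it stood at 132, 127, 188, 155, 168 and 105 CPM. JUN sgRNAs 1 to 5 lay above all controls and JUN sgRNA 6 lay among them. The means were 146 ± 30.1 CPM (SD, n = 6) and 106 ± 11.02 CPM (SD, n = 4), with a log2 fold change of 0.39 ± 0.091 (SE; edgeR adjusted p = 0.18).

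KIF18A, a kinesin that damps chromosome movements at the spindle equator (ENSG00000121621, chromosome 11, 28020619 to 28108156), stood at 11.4, 12.3, 17.9 and 7.71 CPM in the controls, from 8 to 44 UMIs each. In JUN sgRNAs 1 to 6 it stood at 25.02, 18.7, 27.4, 21.9, 31.99 and 14.7 CPM, from 24 to 55 UMIs each. All 6 lay above the control mean and 5 above every control. The means were 23.3 ± 6.19 and 12.3 ± 4.22 CPM, a difference of 0.77 ± 0.18 on the log2 scale (SE; edgeR adjusted p = 0.23).

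CENPF, a large protein of the kinetochore corona (ENSG00000117724, chromosome 1, 214603195 to 214664571), stood at 168, 187, 134 and 192 CPM in the controls and at 220, 208, 242, 280, 344 and 139.9 CPM in JUN sgRNAs 1 to 6. JUN sgRNA 5 was the highest and JUN sgRNA 6 again lay among the controls. The means were 239 ± 69.1 and 170 ± 26.0 CPM, with a log2 fold change of 0.44 ± 0.12 (SE; edgeR adjusted p = 0.45). Without JUN sgRNA 6, CCNB1 (log2 0.46) and CENPF (0.55) passed (edgeR adjusted p = 0.010 for both) and KIF18A did not. With no filter on low counts all 3 passed (edgeR adjusted p = 0.0011 for CCNB1, 0.021 for KIF18A and 4.1e-07 for CENPF). Over all alternatives the adjusted p ran from 0.0011 to 1.0 for CCNB1, from 0.021 to 1.0 for KIF18A and from 4.1e-07 to 1.0 for CENPF.

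**Figure D4:**
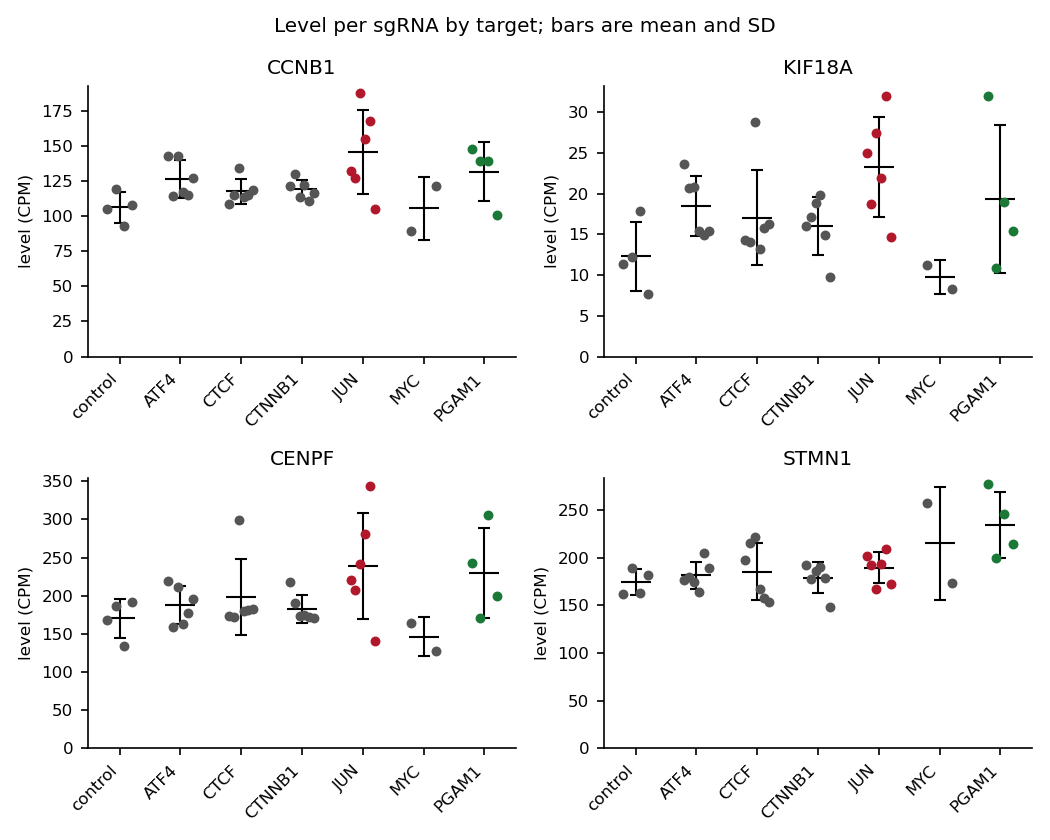
Level (CPM) of CCNB1, KIF18A, CENPF and STMN1 for each sgRNA (points) by target, with mean and SD as bars. For CCNB1 and CENPF, 5 of the 6 JUN sgRNAs lie above all controls, and for STMN1 the 4 PGAM1 sgRNAs lie above all controls.

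The other extreme genes with JUN sgRNAs were FAM83D, which brings a kinase to the spindle, at 18.9 ± 5.74 against 10.3 ± 5.91 CPM (log2 0.65, edgeR adjusted p = 0.81), and, at the low end, the microtubule polymerase CKAP5 at 67.7 ± 10.4 against 68.5 ± 6.90 CPM (-0.04) and BIRC5, the survivin subunit of the chromosomal passenger complex, at 61.5 ± 6.76 against 61.5 ± 9.41 CPM (0.003). By role, the medians of the log2 fold change were 0.24 for cyclin B-CDK1 and its activators (6 genes), 0.27 for kinases and the passenger complex (7), 0.25 for spindle motors and microtubule proteins (18), 0.30 for centromere and kinetochore genes (6), 0.16 for mitotic exit (5), 0.18 for chromosome structure and nuclear envelope (8) and 0.14 for cytokinesis (3). CDK1 itself stood at 189 ± 29.7 against 185 ± 24.1 CPM (0.01). Of the paralogues, CCNB2 (0.30) lay near CCNB1 (0.39), AURKA (0.27) near AURKB (0.32), and CKS2 (0.19) above CKS1B (0.08), none of them past the test. The late genes had a median of 0.30 and the early genes of 0.20, a difference that was not tested.

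The share of G2/M-high cells with JUN sgRNAs differed from that of the controls by less than the spread between sgRNAs. It was 20.4 ± 4.70% (SD, n = 6) with JUN sgRNAs, between 13.5% and 25.3%, and 20.2 ± 3.01% (n = 4) with controls, between 16.5% and 23.4% (exact two-sided permutation test, p = 0.95, adjusted p = 0.95 over the 6 targets). Without thinning the shares ran from 15.4% to 25% with JUN sgRNAs and from 19.3% to 26.0% with controls. With the higher limit of 23 anchor UMIs, the shares in JUN sgRNAs 1 to 6 were 15.6%, 7.89%, 13.9%, 15.5%, 14.3% and 6.02%, and those of the controls ran from 6.33% to 11.2%. At that limit 4 of the 6 JUN sgRNAs lay above every control, a difference of 2.86 percentage points between the means (exact two-sided permutation test, adjusted p = 0.56). Within G2/M-high cells, CCNB1 stood at 467 ± 105 against 348 ± 17.98 CPM, CENPF at 703 ± 212 against 499.7 ± 71.8 CPM and KIF18A at 72.0 ± 21.5 against 36.3 ± 15.5 CPM (edgeR adjusted p = 0.81, 0.38 and 0.38). Outside them, CCNB1 stood at 46.2 ± 6.00 against 36.7 ± 8.29 CPM, CENPF at 87.4 ± 25.5 against 72.7 ± 1.45 CPM and KIF18A at 7.86 ± 2.78 against 5.73 ± 2.36 CPM (edgeR adjusted p = 1.0 for each). The difference thus had the same sign in both parts of the culture and passed in neither. The median log2 fold change of the 53 genes with JUN sgRNAs was 0.19 within G2/M-high cells, and 0.14 over the 51 of them tested outside.

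The JUN sgRNAs differed among themselves. The summed level of the 53 genes was 3931, 3429, 3809, 4196, 4687 and 2788 CPM in JUN sgRNAs 1 to 6, and 3187, 3557, 2797 and 3442 CPM in control sgRNAs 1 to 4. JUN sgRNA 5 was the highest and JUN sgRNA 6 lay below every control. The UMIs of late genes over those of early genes were 1.22, 1.20 and 1.12 in JUN sgRNAs 3, 5 and 4, above the controls (0.91 to 1.03), and 0.94 to 1.00 in the other 3. The JUN transcript was 72.1, 66.7, 53.8, 81.3, 53.3 and 60.8 CPM in JUN sgRNAs 1 to 6.

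**Figure D5:**
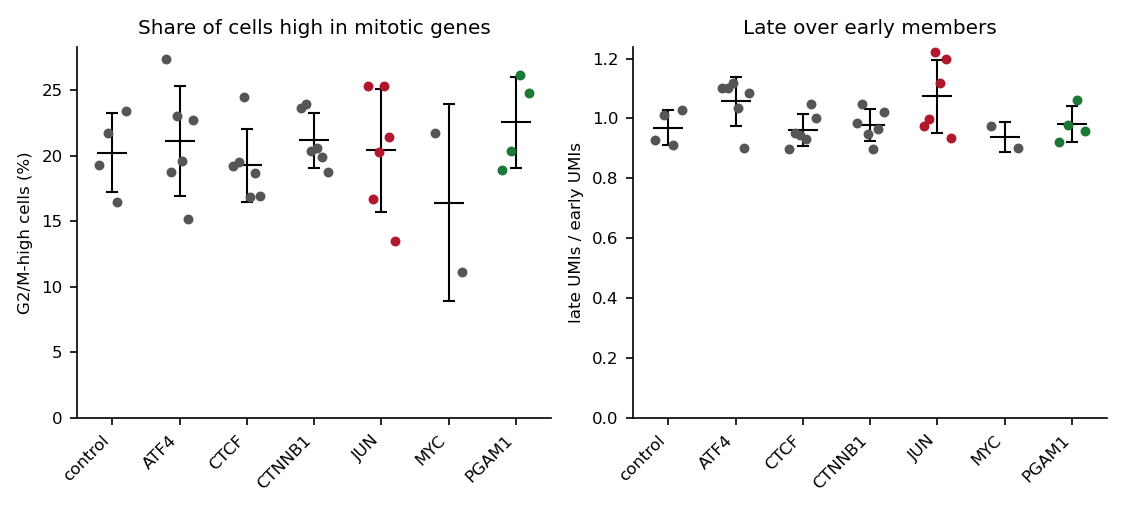
Share of G2/M-high cells (left, percent) and UMIs of late over early genes (right) for each sgRNA (points) by target, with mean and SD as bars. The JUN sgRNAs spread around the controls on the left, and 3 of them lie above the controls on the right, as do most of the ATF4 sgRNAs.

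With PGAM1 sgRNAs, all 53 values were positive, with a median log2 fold change of 0.28 against 0.006 over all genes. PGAM1 is an enzyme of glycolysis. An unadjusted p under 0.05 with a higher value was reached by 26 of 53 genes and by 4.36% of all genes. All 4 PGAM1 sgRNAs lay above all 4 controls for 9 of 53 genes, and for 2.73% of all genes. STMN1 (ENSG00000117632, chromosome 1, 25884179 to 25906880) stood at 162, 189.5, 164 and 182 CPM in the controls and at 278, 200.3, 246 and 215 CPM in PGAM1 sgRNAs 1 to 4, with no overlap. It rose from 174 ± 13.7 to 235 ± 34.7 CPM (SD, n = 4 each), a log2 fold change of 0.40 ± 0.091 (SE; edgeR adjusted p = 0.020). The call was lost without control sgRNA 1 (log2 0.35, adjusted p = 0.18), control sgRNA 3 (0.38, 0.078), PGAM1 sgRNA 1 (0.35, 0.11) or PGAM1 sgRNA 3 (0.37, 0.13), under the stricter and the looser sgRNA rule (adjusted p = 0.51 and 0.074) and with at most 10% mitochondrial UMIs (0.50). PGAM1 sgRNA 1 had too few cells to enter under the stricter rule or at the 10% mitochondrial limit. The losses in those settings thus cannot be told apart from the loss without that sgRNA. STMN1 stood at nearly the same level in mitotic and in S phase cells. TMPO, which was lower in mitotic than in S phase cells, had a log2 fold change of 0.03 with PGAM1 sgRNAs.

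The largest other values with PGAM1 sgRNAs were those of FAM83D, at 19.1 ± 5.63 against 10.3 ± 5.91 CPM (log2 0.81 ± 0.26, edgeR adjusted p = 0.18), and CENPE, a kinetochore motor, at 35.2 ± 7.30 against 19.3 ± 4.86 CPM (0.79 ± 0.22, adjusted p = 0.086). The smallest were those of LBR, the lamin B receptor of the nuclear envelope (0.01; 69.0 ± 8.14 against 67.0 ± 8.72 CPM), and TMPO (0.03; 45.9 ± 7.70 against 46.0 ± 7.41 CPM). By role, the medians were 0.43 for kinases and the passenger complex, 0.43 for centromere and kinetochore genes, 0.39 for spindle motors and microtubule proteins, 0.22 for cyclin B-CDK1 and its activators, 0.22 for chromosome structure and nuclear envelope, 0.19 for cytokinesis and 0.16 for mitotic exit. The summed level was 4067, 3208, 4865 and 3635 CPM in PGAM1 sgRNAs 1 to 4, of which sgRNA 2 lay among the controls. The share of G2/M-high cells was 22.6 ± 3.47% (n = 4) against 20.2 ± 3.01% (exact two-sided permutation test, p = 0.37, adjusted p = 0.89). Before adjustment, 0.029 is the smallest p that this test can give for 4 against 4 sgRNAs. Without thinning the share ran from 16.7% to 28.0%. The share of cells with at least 14 UMIs of the S phase list was 13.5%, 13.0%, 14.02% and 9.77% in PGAM1 sgRNAs 1 to 4 and 7.45% to 9.15% in the controls, with no overlap. Without thinning these S phase shares ran from 9.63% to 16.2% with PGAM1 sgRNAs and from 5.19% to 11% with controls, and overlapped. They were looked at after the values were seen, and their part in the STMN1 result was not tested. The median log2 fold change was 0.13 within G2/M-high cells and 0.12 over the 51 genes tested outside them, less than the 0.28 of all cells, and no gene of the 53 passed in either part. Median mitochondrial shares were 8.52% to 10.1% with PGAM1 sgRNAs and 10.7% to 11.4% with controls, and their part in these values was not tested.

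With the other targets the median log2 fold change of the 53 genes was smaller in size than with JUN or PGAM1 sgRNAs. Single genes still spread widely with MYC sgRNAs. For CTNNB1, the median log2 fold change was 0.11 and 45 of 53 values were positive. The highest were CDC25C (0.43; 12.9 ± 1.10 against 9.67 ± 0.80 CPM) and KIF18A (0.41; 16.1 ± 3.58 against 12.3 ± 4.22 CPM), and the lowest TACC3, a spindle protein (-0.25), and the kinesin KIF20B (-0.07). An unadjusted p under 0.05 with a higher value was reached by 4 of 53 genes against 2.04% of all genes. The median ranged from -0.01 within G2/M-high cells to 0.24 with at most 10% mitochondrial UMIs, and was 0.04 without control sgRNA 3. For CTCF, the median was 0.07, with GAS2L3 (0.50) and FAM83D (0.34) highest and TACC3 (-0.30) and BIRC5 (-0.14) lowest, and 2 of 53 genes had an unadjusted p under 0.05 with a higher value against 3.38% of all genes. The CTCF median ranged from -0.02 outside G2/M-high cells to 0.19 with at most 10% mitochondrial UMIs.

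For ATF4, the median was 0.04 (-0.01 without control sgRNA 3 and -0.02 within G2/M-high cells), with KIF18A (0.43; 18.5 ± 3.68 CPM) and CDC25C (0.41) highest and the condensin subunit NCAPD2 (-0.20) and the kinetochore protein NDC80 (-0.18) lowest. There, 5 of 53 genes had an unadjusted p under 0.05 with a higher value, against 6.00% of all genes. The late genes had a median of 0.13 and the early genes of -0.05. The UMIs of late over early genes were 1.10, 1.10, 1.12, 1.04, 0.90 and 1.09 in ATF4 sgRNAs 1 to 6 (median 1.09). In the controls they ran from 0.91 to 1.03, so all but ATF4 sgRNA 5 lay above every control, a difference that was not tested. For MYC, with 2 sgRNAs, the median was -0.16, against -0.04 over all genes. ECT2, an activator of cytokinesis (-0.72; 28.1 ± 18.6 against 52.6 ± 6.42 CPM), and FAM83D (-0.72) were lowest and CDC25C (0.30) and CDC20, an activator of the anaphase-promoting complex (0.25), highest. An unadjusted p under 0.05 with a lower value was reached by 4 of 53 genes and by 4.61% of all genes. Both MYC sgRNAs lay below all 4 controls for 9 of 53 genes, and for 1708 of all 11570 genes. They lay above all controls for 2 of 53 genes, and for 1346 of 11570. The MYC median turned to 0.09 under the looser sgRNA rule, to 0.05 outside G2/M-high cells and to 0.01 within them. The sgRNAs were not the same in these settings. The looser rule added MYC sgRNA 3 (20 cells), and only MYC sgRNA 4 had enough cells outside G2/M-high cells. Within them each MYC sum held 5 cells.

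The shares of G2/M-high cells were 21.1 ± 4.21% with ATF4, 19.3 ± 2.77% with CTCF and 21.2 ± 2.10% with CTNNB1 sgRNAs (n = 6 each; exact two-sided permutation test, p = 0.74, 0.60 and 0.58, adjusted p = 0.89 for each). The anchor that sets these shares includes UBE2S, which held a large part of the anchor and itself rose with ATF4 sgRNAs (below). Its part in the shares of any target, ATF4 among them, was not tested. With MYC sgRNAs the shares were 11.1% and 21.7% (exact permutation test, p = 0.47, where 0.067 is the smallest p that 2 against 4 sgRNAs can give). Shallow cells left out of these shares numbered 9 with controls, 5 with ATF4, 14 with CTCF, 18 with CTNNB1, 12 with JUN, 0 with MYC and 2 with PGAM1 sgRNAs. KIF18A was among the 2 highest values in 3 contrasts, those of ATF4, CTNNB1 and JUN, and FAM83D in those of CTCF, JUN and PGAM1. These contrasts share their controls, and the control levels of both genes spread widely, from 7.71 to 17.9 CPM for KIF18A and from 3.85 to 18.2 CPM for FAM83D.

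Few other genes of the pathway passed the test. Of the 38 mitotic anchor genes, 1 passed, UBE2S, with ATF4 sgRNAs, where 1.75% of all genes passed. UBE2S, which extends ubiquitin chains for the anaphase-promoting complex, rose from 833 ± 85.7 to 1002 ± 70.5 CPM (log2 0.23 ± 0.060, edgeR adjusted p = 0.026; higher than the control mean in 6 of 6 sgRNAs). UBE2S is also on the list of 26 tested genes of the checkpoint and the anaphase-promoting complex that are not members. The 1 gene past the test there is thus the same gene and not a further result. None of the 42 tested S phase genes and of 21 regulators of G2/M entry passed in any contrast with edgeR. The anchor genes had a median log2 fold change of 0.17 with JUN and 0.25 with PGAM1 sgRNAs, and the S phase genes 0.04 and 0.13.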

How the data were processed

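Per the file headers, the deposited matrix was made with Cell Ranger 6.1.2. Per the submitters' processing notes the genome build was hg38. The authors deposited raw UMI counts per gene or sgRNA and cell barcode, the 2 libraries in 1 joint matrix. The sources used here do not state alignment settings or doublet removal before deposit.

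Cells needed at least 1000 UMIs, 500 genes and at most 20% mitochondrial UMIs. A cell was assigned to its top sgRNA at 5 or more UMIs and 80% of its sgRNA UMIs. No doublet caller was used. Cells of 1 sgRNA were added up, for the 34 sgRNAs with at least 20 cells. The sums were tested with edgeR 4.0.16 (R 4.3.3; quasi-likelihood, TMM, filterByExpr), all targets in 1 fit, with Benjamini-Hochberg adjustment over 11570 genes within each contrast and a threshold of 0.05. Counts varied between sgRNAs by 4.64% beyond counting noise (edgeR common dispersion). As there was 1 culture, p-values reflect only how sgRNAs vary, which may be technical. Levels are CPM of the summed counts. The script was tested on simulated data.

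The genes, roles, timing lists and tests were chosen with earlier results of these data known. Named genes are CCNB1, KIF18A and CENPF with JUN, genes past the threshold, the 2 highest and 2 lowest fold changes of each contrast, the 3 highest and 3 lowest levels, the 5 highest and 5 lowest stage ratios and 3 paralogue pairs. Others named with values (CDK1, TOP2A, KIF23, PTTG1 and those of the cell groups) were chosen after their values were seen. Alternatives were RLE size factors, DESeq2 1.42.0, no filter on low counts, other sgRNA rules, at most 10% mitochondrial UMIs, separate cell groups, separate fits and leaving out each sgRNA.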

Additional observations from a re-analysis of the deposited data

Results flagged for a closer look

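Within groups of 4 to 6 sgRNAs, 42 sets of values were checked for a sgRNA far from the others, and 5 stood apart, where chance gives about 1 in 20. Of these 5 values, 4 belong to CTCF sgRNA 3, which has 48 cells. Its summed level of the 53 genes was 4445 CPM, where the next CTCF sgRNA had 3330 CPM. Its CENPF level was 299 CPM against 183 CPM in the next, and its KIF18A level 28.8 CPM against 16.3 CPM. Its share of G2/M-high cells was 24.4%, with 19.5% in the next. The CTCF transcript of this sgRNA was also the lowest of the 6, at 20.8 CPM (13 UMIs), and whether the 2 are linked was not tested. Without it, the median log2 fold change of the 53 genes with CTCF sgRNAs was 0.05 in place of 0.07, while it was 0.13 without control sgRNA 2 and 0.005 without control sgRNA 3. The last value was the STMN1 level of CTNNB1 sgRNA 6, which has 32 cells, at 148 CPM, where the next lowest CTNNB1 sgRNA had 178 CPM.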

How the results depend on the processing

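The count of 0 genes called with ATF4, CTCF, CTNNB1 and MYC sgRNAs held under every alternative run for each of them. MYC gave no value with at most 10% mitochondrial UMIs, where too few cells were left, and where 1 MYC sgRNA was left it was assumed to vary like the others. With JUN sgRNAs the count was 3 with no filter on low counts (CCNB1, KIF18A and CENPF, of 15 genes called in all), 0 to 2 when an sgRNA was left out, and 0 otherwise. CCNB1 then had a log2 fold change of 0.38, CENPF of 0.43 and KIF18A of 0.76, against 0.39, 0.44 and 0.77. Leaving out an sgRNA moved CCNB1 between 0.33 and 0.46 and CENPF between 0.35 and 0.55. With PGAM1 sgRNAs the count of 1 was 7 with no filter on low counts, 8 when fitted alone with the controls and 2 under the looser sgRNA rule (ASPM and CENPE, without STMN1). It was 0 under the stricter rule, 0 with at most 10% mitochondrial UMIs, 0 within and 0 outside G2/M-high cells, where fewer cells enter, and 0 to 4 when an sgRNA was left out (0 without control sgRNA 1 or 3 or PGAM1 sgRNA 1 or 3, 4 without control sgRNA 2). The causes were otherwise not tested. The median log2 fold change with PGAM1 sgRNAs (0.28) was 0.36 under the stricter rule, 0.37 with at most 10% mitochondrial UMIs and 0.18 without PGAM1 sgRNA 3. PGAM1 sgRNA 1 had too few cells to enter under the stricter rule or at the 10% mitochondrial limit. The median with JUN sgRNAs (0.22) ran from 0.14 outside G2/M-high cells to 0.37 under the stricter rule. JUN sgRNA 3 had too few cells to enter under that rule. The JUN median was 0.15 without control sgRNA 3 and 0.17 without JUN sgRNA 4. DESeq2 was run on 22482 genes without the filter on low counts. Its median with PGAM1 sgRNAs was 0.15 over all of these, beside 0.27 for the 53 genes. The edgeR median of 0.006 covers only the 11570 genes kept, so the medians over all genes are not of the same genes. The shares of G2/M-high cells passed in no alternative, but these tests had little room to pass. In the exact permutation test the smallest p before adjustment is 0.029 for PGAM1 (4 against 4 sgRNAs). For MYC (2 against 4) it is 0.067, so MYC could not pass. Depth limits the small groups most: the MYC sums hold 267726 and 484643 UMIs. No paired analysis was possible because the labels give the sgRNAs no replicate numbers that pair them across targets.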
